A study of Homo sapiens with 6 samples.

Results

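The genes described here are those of the Toll-like receptors, the NOD-like receptors (NLRs), and the adaptors and kinases through which these receptors and the cytosolic nucleic acid sensors signal. They were taken by gene symbol alone: symbols that begin with TLR, NLRP, NLRC, CARD, IRAK or TRAF and a digit, without the TRAF-interacting names, and a set of fixed names such as MYD88, MAVS and TBK1. The rule found 32 genes on 33 probe sets among the 14812 genes tested, and the probe set with the highest mean over the 6 arrays stood for its gene. Because the rule also reads the start of a symbol, it took in TLR8-AS1, an antisense transcript, and IRAK1BP1, which encodes a protein that binds IRAK1. TICAM2, IRAK4, TRAF2, TRAF6, TRAF7, NAIP, CIITA, IKBKE, IKBKB, IKBKG and the NLRP and NLRC genes were not analysed here.

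Expression was measured in HuH7 cells, an established human hepatoma line, in 3 arrays from cells given a gapmer against the long noncoding RNA EGOT and 3 from cells given a control gapmer. Gapmers are antisense oligonucleotides whose DNA centre directs RNase H to cut the RNA they pair with. In both groups, wells were seeded at 100000 cells and transfected with 50 pmol of gapmer, a carrier plasmid, 0.3 µg of a PKR expression plasmid and poly I:C, and RNA was taken after 36 hours. PKR is a kinase that double-stranded RNA activates, and poly I:C is a synthetic form of such RNA. The design holds 1 gapmer sequence per group, 1 cell line and no cells without PKR and poly I:C, and the labels do not say whether replicates were separate cultures, so the p-values speak only of the spread among these 6 samples, and that spread may be technical.

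The designed difference between the groups is the gapmer, for which the labels give these sequences.

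EGOT gapmer: agagacacttagaaga

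control gapmer: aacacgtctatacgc

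Toll-like receptors recognise microbial molecules at the cell surface or in endosomes, where TLR3 binds double-stranded RNA. Most Toll-like receptors signal through the adaptor MYD88, which assembles IRAK kinases and the ubiquitin ligase TRAF6, whereas TLR3 signals through TICAM1 (TRIF) and TRAF3. Double-stranded RNA inside the cell is instead sensed by RIG-I and MDA5, which act through the mitochondrial adaptor MAVS, and cytosolic DNA by cGAS, which acts through STING. The routes converge on the kinases TBK1 and IKKepsilon, which activate interferon regulatory factors, and on the IKK complex, which releases NF-kB. NOD1 and NOD2 sense bacterial peptidoglycan fragments and signal through RIPK2. HuH7 cells are known for little TLR3.

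EGOT itself checked the labels. It read 4.91, 4.90 and 4.69 on the log2 scale in the EGOT gapmer arrays, against 6.29, 6.79 and 6.71 in the control gapmer arrays, a log2 difference of -1.76 (SE 0.142, limma adjusted p = 0.0076). Permuting the 6 values between the groups (exact, two-sided) gave p = 0.1, the smallest that 3 arrays against 3 allow. EIF2AK2, the gene for PKR, was lower by a log2 difference of -0.57 (limma adjusted p = 0.0119). It passed in 10 of 14 alternatives, but not without control gapmer replicate 1, 2 or 3 (adjusted p = 0.0605, 0.0640 and 0.0616) or with the replicate number as a block (adjusted p = 0.0634). Both groups received the PKR plasmid, and whether the EIF2AK2 probe set also reads RNA from that plasmid was not examined. Of 10 hepatocyte and hepatoma markers 8 were measured, and all of those, including ALB and AFP, lay above the array median on every array. Of these 1, APOA1, was higher with the EGOT gapmer, by 0.36 on the log2 scale (limma adjusted p = 0.0406). The log2 of their summed linear signal was 15.62 to 15.64 with the EGOT gapmer and 15.65 to 15.67 with the control gapmer, ranges that did not overlap. Of 15 leukocyte markers 8 were measured, and 2 of them, CD68 and LYZ, were higher with the EGOT gapmer, where 8.41% of all genes tested passed. Their log2 differences were 1.06 for CD68 (limma adjusted p = 0.0081) and 0.57 for LYZ (limma adjusted p = 0.0171). CD2 and CSF1R had log2 differences of 0.34 and 0.24 and CD14, CD163, LCP1 and TYROBP of -0.06, -0.32, -0.06 and -0.06, none of which passed by limma's adjusted p. The log2 of the summed linear signal of the 8, most of it from CD68 and LYZ, was 10.58 to 10.63 with the EGOT gapmer and 9.97 to 10.03 with the control gapmer, and among the 8, CD163 lay below the median on every array. Their part in the differences reported here was not tested. Endothelial markers (3 of 6 measured) and fibroblast and stellate markers (2 of 6 measured) held no gene that passed by limma's adjusted p. The log2 of the endothelial sum was 6.22 to 6.65 with the EGOT gapmer and 6.29 to 6.49 with the control gapmer. The log2 of the fibroblast and stellate sum was 4.36 to 4.57 with the EGOT gapmer and 4.13 to 4.38 with the control gapmer.

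Among the 32 genes, 1 passed the test across all genes (limma, Benjamini-Hochberg adjusted p under 0.05): IRAK2, an IRAK kinase family member that acts between MYD88 and TRAF6, was lower with the EGOT gapmer. That is 3.12% of the genes described, where 8.41% of all genes tested passed, 5.2% higher and 3.21% lower. The members divided evenly by sign, with 16 differences above 0 and 16 below, and their median log2 difference was -0.0010, against 0.037 over all genes tested. With the trend of the difference on genomic gene span removed, the members' median was -0.074, against -0.00032 over all genes tested. The median size of the difference, regardless of sign, was 0.13 for the members and for all genes tested. At an unadjusted p under 0.05 there were 5 members, 2 higher and 3 lower, or a share of 15.6%, where 25% of all genes tested reached it, 16.2% higher and 8.79% lower. The 3 values of a group all lay on the same side of the other group's in 8 members, 6 higher and 2 lower, or 25%, where 31.7% of all genes tested did so, 20.2% higher and 11.5% lower. These shares lie near or below those of the whole array. Calls also depend on level. Of the 18 members above the array median on every array 1 passed, or 5.56%, against 11.9% of all genes above it. Of the other 14 members 0 passed, against 2.06% of all other genes.

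Most of these genes were measured closely enough to bound their difference. The 95% interval of the log2 difference, not adjusted for the number of genes, stayed within a 1.5-fold change in either direction in 25 of 32 members and within a 2-fold change in all 32. Intervals reached a fall of 1.5-fold in 6 members, TLR2, TLR3, IRAK2, IRAK3, TRAF1 and TLR8-AS1, and a rise of 1.5-fold in 1, TLR8. Of the 18 members above the array median on every array, 16 were bounded within 1.5-fold, and of the other 14 members 9 were. Values near the low end of RMA carry mostly background, which compresses differences there.

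**Figure D1:**
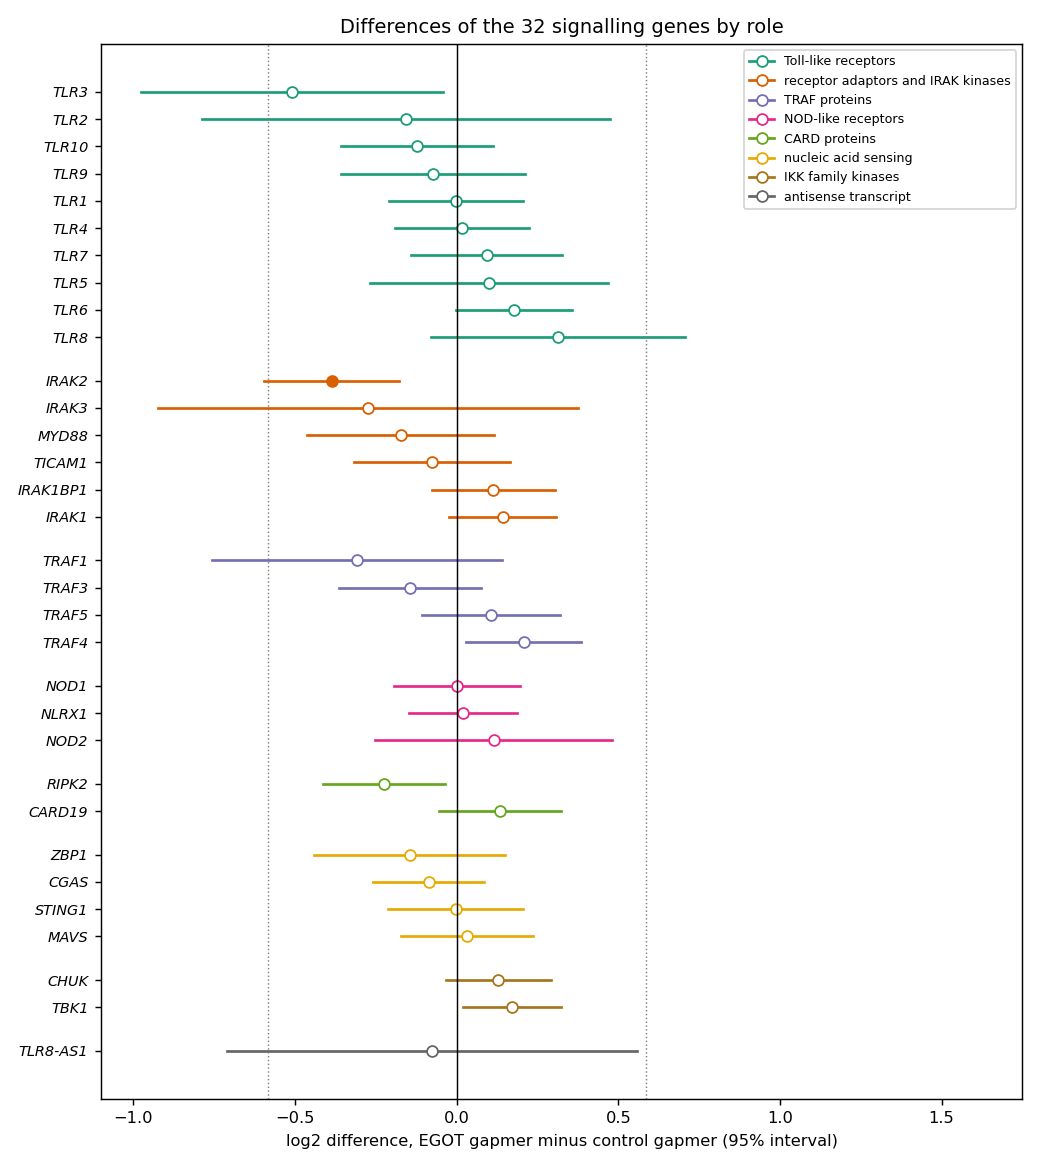
Log2 difference (EGOT gapmer minus control gapmer, x axis) of the 32 genes, grouped by role from receptors at the top to the antisense transcript at the bottom. Points are fitted differences, lines their 95% intervals, the filled point passed at an adjusted p under 0.05, and dotted lines mark a 1.5-fold change. IRAK2 is the filled point at -0.39, and TLR3 lies farthest from 0 at -0.51 with an interval from -0.98 to -0.04.

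The Toll-like receptor genes were mostly dim in these cells. All of TLR1 to TLR10 were measured, and 8 of 10 lay below the array median on every array, the exceptions being TLR9, above it on all 6 arrays, and TLR2, above it on 5. The share of members below the median on every array was 11 of 32 overall. None of the 10 receptor genes passed by limma's adjusted p, 1 had an unadjusted p under 0.05, and 5 differences lay above 0 and 5 below.

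TLR3, the endosomal receptor for double-stranded RNA, had the difference of largest size among the 32 genes. Its log2 level was 4.26, 4.05 and 3.99 in the EGOT gapmer arrays and 4.76, 4.93 and 4.14 in the control gapmer arrays. The lowest control gapmer array lay between the EGOT gapmer values and the groups overlapped. The log2 difference was -0.51 (SE 0.199, 95% interval -0.98 to -0.04, unadjusted p = 0.0362), and it did not pass (limma adjusted p = 0.166). It passed in 0 of 13 alternatives, with log2 differences from -0.74 to -0.35. The SD of TLR3 was 0.145 with the EGOT gapmer and 0.413 with the control gapmer (n = 3 each), and without control gapmer replicate 3 the difference was -0.74.

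TLR6, which pairs with TLR2 to recognise diacylated lipopeptides, was the receptor gene whose groups did not overlap. It read 2.88, 2.94 and 2.86 in the EGOT gapmer arrays and 2.66, 2.82 and 2.66 in the control gapmer arrays. All of these values are far below the array medians of 5.08 to 5.23. The log2 difference of 0.18 did not pass (SE 0.0762, limma adjusted p = 0.204).

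The differences of the other receptor genes were within the spread of their replicates. TLR8, an endosomal receptor for single-stranded RNA, had a log2 difference of 0.31 (SE 0.167, limma adjusted p = 0.300), with 3.51, 3.50 and 2.90 in the EGOT gapmer arrays and 2.91, 3.09 and 2.97 in the control gapmer arrays. Its value in EGOT gapmer replicate 3 lay below every control value, while replicates 1 and 2 lay above them all. TLR2, a receptor for bacterial lipoproteins, was the most variable gene of the family, with an SD of 0.599 in the EGOT gapmer arrays and 0.0986 in the control gapmer arrays (n = 3 each). It read 5.14, 5.67 and 4.47 with the EGOT gapmer and 5.16, 5.24 and 5.35 with the control gapmer, a log2 difference of -0.16 (95% interval -0.79 to 0.48). The remaining receptors, TLR1, TLR4, the lipopolysaccharide receptor, TLR5, the flagellin receptor, TLR7, a receptor for single-stranded RNA, TLR9, the receptor for CpG DNA, and TLR10, had log2 differences from -0.12 for TLR10 to 0.10 for TLR5, with limma adjusted p-values from 0.512 for TLR10 to 0.990 for TLR1. TLR8-AS1, annotated antisense to TLR8, had a log2 difference of -0.08 (95% interval -0.71 to 0.56). Which strand each probe set reads was not examined here, so the values of TLR8 and TLR8-AS1 are uncertain.

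In the layer of adaptors and IRAK kinases next to the receptors, IRAK2 fell. Its log2 level was 8.30, 8.05 and 8.21 in the EGOT gapmer arrays and 8.61, 8.61 and 8.49 in the control gapmer arrays. Every EGOT gapmer value lay below every control gapmer value. The group means were 8.19 ± 0.131 with the EGOT gapmer and 8.57 ± 0.0667 with the control gapmer (SD, n = 3 each). The log2 difference was -0.39 (SE 0.0887, 95% interval -0.60 to -0.18, limma adjusted p = 0.0440), or 0.765 times the control level. Since these are bulk samples, fewer cells expressing a gene and less RNA per cell cannot be told apart.

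The direction of IRAK2 held in all 14 alternatives, with log2 differences from -0.45 to -0.32, but its call did not. It passed in 5 alternatives and in none of the 6 that left out an array, where adjusted p-values were 0.0552, 0.0823 and 0.102 without EGOT gapmer replicates 1, 2 and 3 and 0.132, 0.142 and 0.103 without control gapmer replicates 1, 2 and 3. In those 6 fits the share of all genes called was itself 0.0608% to 3.91%. It also missed the threshold when array medians were subtracted (adjusted p = 0.0723), when the trend of the difference on genomic gene span was removed (adjusted p = 0.0631) and with the replicate number as a block (adjusted p = 0.1).

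**Figure D2:**
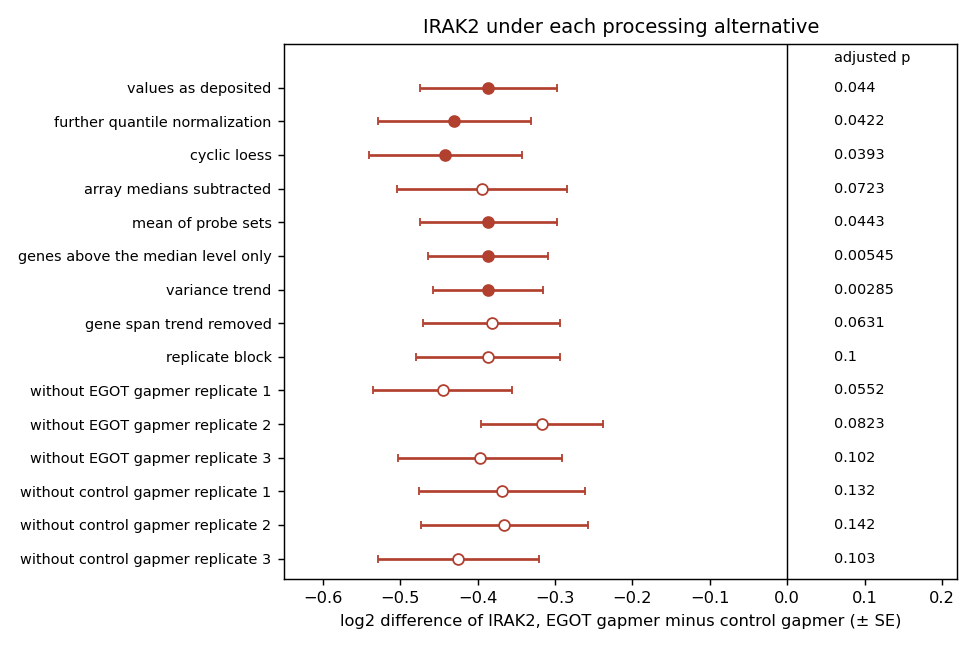
Log2 difference of IRAK2 (EGOT gapmer minus control gapmer, x axis) under the values as deposited and each of 14 processing alternatives, with bars of 1 standard error and limma adjusted p-values at the right. Filled points passed at 0.05. All points lie between -0.45 and -0.32, and 5 of the 14 alternatives are filled.

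The other adaptors did not pass. MYD88 read 7.87, 8.15 and 8.03 in the EGOT gapmer arrays and 8.23, 8.37 and 7.97 in the control gapmer arrays, so that control gapmer replicate 3 lay among the EGOT gapmer values. Its log2 difference was -0.17 (95% interval -0.46 to 0.12, limma adjusted p = 0.444). TICAM1, the adaptor of TLR3, read 6.49, 6.74 and 6.68 with the EGOT gapmer and 6.67, 6.60 and 6.86 with the control gapmer. Its groups overlapped, with a log2 difference of -0.08 (95% interval -0.32 to 0.16, limma adjusted p = 0.705).

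The IRAK genes differed in sign among themselves. IRAK1, the kinase recruited to MYD88 complexes, read 6.64, 6.76 and 6.63 in the EGOT gapmer arrays and 6.53, 6.53 and 6.55 in the control gapmer arrays. All EGOT gapmer values were the higher ones, yet the log2 difference of 0.14 did not pass (SE 0.0700, limma adjusted p = 0.264). IRAK3, an inhibitory family member found mainly in monocytes and macrophages, had a log2 difference of -0.27 (95% interval -0.92 to 0.38). It was below the array median on every array, and its second probe set had a difference of -0.18. IRAK1BP1 differed by 0.11 on the log2 scale (limma adjusted p = 0.450). The difference between the IRAK1 and IRAK2 responses was not tested.

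Among the TRAF genes, which encode ring-domain and scaffold proteins that join receptors to kinases, none of 4 passed by limma's adjusted p and 1, TRAF4, had an unadjusted p under 0.05. TRAF4 read 7.97, 8.04 and 8.16 in the EGOT gapmer arrays and 7.84, 7.88 and 7.82 in the control gapmer arrays. Its groups did not overlap, and the log2 difference was 0.21 (SE 0.0756, 95% interval 0.03 to 0.39, limma adjusted p = 0.142). It passed in 2 of 14 alternatives, with a variance trend (adjusted p = 0.0478) and with genes above the median level only (adjusted p = 0.0365), settings in which 17% and 34.4% of all genes passed.

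TRAF3, which joins TICAM1 and MAVS to TBK1, read 7.54, 7.75 and 7.52 with the EGOT gapmer and 7.68, 7.70 and 7.86 with the control gapmer. The groups overlapped, and the log2 difference was -0.14 (95% interval -0.36 to 0.08, limma adjusted p = 0.403). TRAF1, itself a target gene of NF-kB, had a log2 difference of -0.31 with a wide control spread (SD 0.125 with the EGOT gapmer and 0.399 with the control gapmer, n = 3 each, limma adjusted p = 0.377). Its difference was -0.53 without control gapmer replicate 2 and -0.14 without control gapmer replicate 3. TRAF5 differed by 0.11 on the log2 scale (limma adjusted p = 0.537).

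The 3 NOD-like receptor genes had differences of 0.00034 to 0.11 on the log2 scale, and none passed by limma's adjusted p or had an unadjusted p under 0.05. NOD1 read 5.71, 5.53 and 5.67 in the EGOT gapmer arrays and 5.55, 5.64 and 5.71 in the control gapmer arrays. The groups overlapped, with a log2 difference of 0.00034 (95% interval -0.19 to 0.20, limma adjusted p = 0.999). NLRX1, a mitochondrial family member described as a negative regulator of MAVS signalling, read 6.24, 6.37 and 6.35 with the EGOT gapmer and 6.28, 6.29 and 6.33 with the control gapmer. Its log2 difference was 0.02 (95% interval -0.15 to 0.19, limma adjusted p = 0.902). NOD2 had a log2 difference of 0.11 with a wider interval of -0.25 to 0.48. For all 3 genes the intervals leave out a change of 1.5-fold in either direction. NOD2 lay above the array median on 1 of 6 arrays, so its bound is less sure than those of NOD1 and NLRX1, above it on all 6.

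RIPK2, the kinase through which NOD1 and NOD2 signal, was the other member with all EGOT gapmer values below all control gapmer values. It read 7.18, 7.40 and 7.34 in the EGOT gapmer arrays and 7.57, 7.52 and 7.51 in the control gapmer arrays. The log2 difference of -0.23 did not pass (SE 0.0800, 95% interval -0.41 to -0.04, limma adjusted p = 0.133). It passed in 1 of 14 alternatives, with genes above the median level only (adjusted p = 0.0328), a setting in which 34.4% of all genes passed. CARD19, a CARD-bearing gene whose product binds BCL10, had a log2 difference of 0.13 and groups that did not overlap (limma adjusted p = 0.364).

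The adaptors and sensors for cytosolic nucleic acids did not pass. MAVS read 9.24, 9.42 and 9.48 in the EGOT gapmer arrays and 9.42, 9.34 and 9.29 in the control gapmer arrays. The values interleaved, and the log2 difference was 0.03 (95% interval -0.17 to 0.24, limma adjusted p = 0.867). STING1 read 5.61, 5.61 and 5.40 with the EGOT gapmer and 5.63, 5.51 and 5.48 with the control gapmer, a log2 difference of -0.0035 (95% interval -0.21 to 0.20, limma adjusted p = 0.986).

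CGAS, the sensor upstream of STING, was dim, at 3.55, 3.54 and 3.59 with the EGOT gapmer and 3.70, 3.69 and 3.55 with the control gapmer. It was below the array median on every array, and its log2 difference was -0.09 (95% interval -0.26 to 0.08, limma adjusted p = 0.528). ZBP1, a sensor of Z-form nucleic acids and an interferon-induced gene, had a log2 difference of -0.15 (95% interval -0.44 to 0.15, limma adjusted p = 0.541). Of these 4 genes 3 had differences below 0, and none reached an unadjusted p under 0.05 or passed by limma's adjusted p.

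Of the kinases of the IKK family, TBK1 and CHUK were measured, and both had every EGOT gapmer value above every control gapmer value. TBK1, which phosphorylates IRF3, read 8.06, 8.06 and 8.04 in the EGOT gapmer arrays and 7.93, 7.85 and 7.87 in the control gapmer arrays. Its log2 difference was 0.17 (SE 0.0649, 95% interval 0.02 to 0.32) and did not pass (limma adjusted p = 0.157). It passed in 1 of 14 alternatives, with genes above the median level only (adjusted p = 0.0428), a setting in which 34.4% of all genes passed. CHUK, or IKKalpha, had a log2 difference of 0.13 (95% interval -0.03 to 0.29, limma adjusted p = 0.304).

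**Figure D3:**
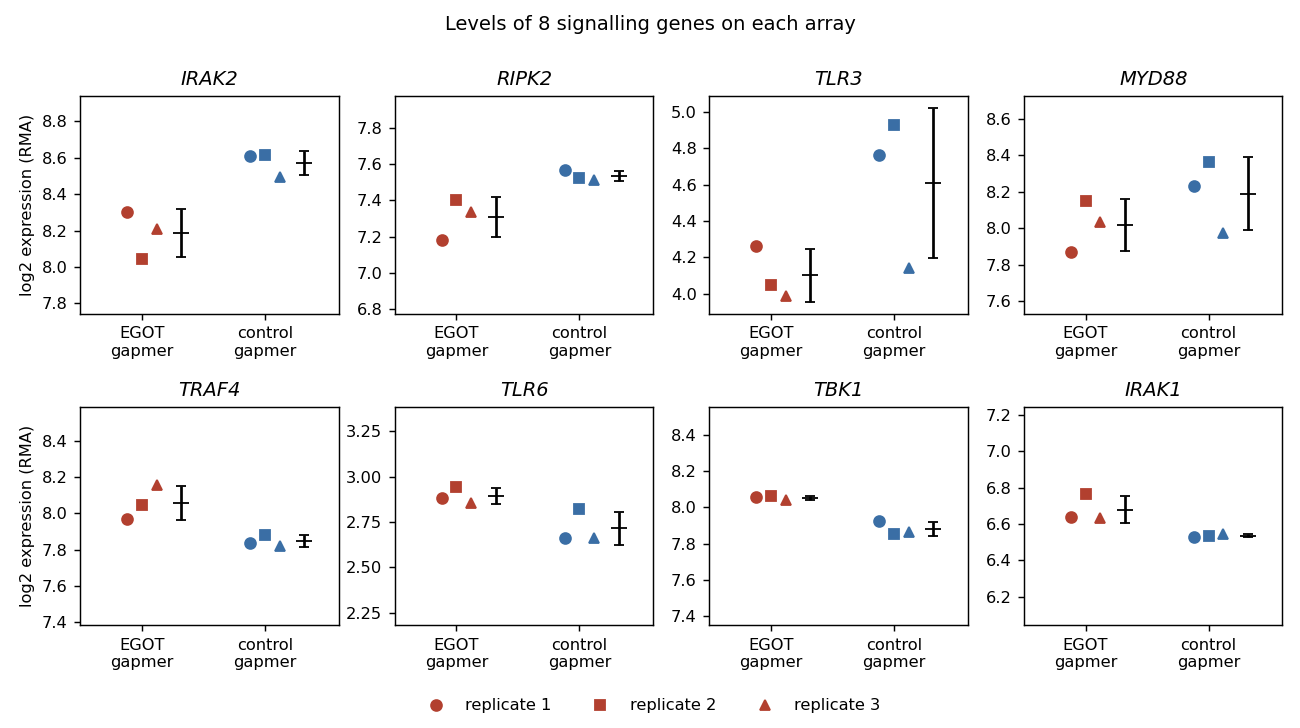
Log2 expression of 8 genes on each array (y axis, RMA values, each panel spanning the same range), with the EGOT gapmer arrays in red at the left and the control gapmer arrays in blue at the right. Symbols give replicates 1 to 3, and black bars the group mean ± SD (n = 3). IRAK2 and RIPK2 lie lower and TRAF4, TLR6, TBK1 and IRAK1 higher in all EGOT gapmer arrays, while TLR3 and MYD88 overlap between the groups, and of the 8 genes IRAK2 passed the test.

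Promoter sequences were searched for 4 motifs, the interferon element among them because TLR3 and MYD88 are known to be induced by interferon. RefSeq sequences of GRCh38.p14 covering 250 bases before to 50 after the gene start matched 24 of 32 members. The core of the interferon-stimulated response element, which reads GAAA, any 2 bases and GAAA again on either strand, was found in 2 of the 24, TLR3 and MYD88, or 8.33%, where 2.94% of 10736 promoters of genes tested and 3.65% of all 27305 promoters of this length held it. That motif was chosen with these 2 genes in mind, so its share cannot show a feature of the members as a set. An NF-kB consensus was found in IRAK1, NLRX1, TICAM1 and TRAF3, or 16.7% of members, where 12.5% of promoters of genes tested held it. An AP-1 consensus, TGANTCA, was found in IRAK1 and TLR9, or 8.33%, against 5.88% of promoters of genes tested, and the cyclic AMP response element TGACGTCA was found in none of the 24, against 2.63%. Shown are the promoters of the 2 members with the interferon element, in capitals, and of IRAK2, the member that passed, which held none of the 4 motifs in this window.

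TLR3 (chr4:186068906-186069205, plus strand): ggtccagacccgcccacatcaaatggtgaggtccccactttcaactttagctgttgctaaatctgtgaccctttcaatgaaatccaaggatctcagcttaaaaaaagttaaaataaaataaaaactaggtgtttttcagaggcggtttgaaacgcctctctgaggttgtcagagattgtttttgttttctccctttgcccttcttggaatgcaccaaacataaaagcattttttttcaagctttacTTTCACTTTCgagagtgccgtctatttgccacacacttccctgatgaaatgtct

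MYD88 (chr3:38138411-38138710, plus strand): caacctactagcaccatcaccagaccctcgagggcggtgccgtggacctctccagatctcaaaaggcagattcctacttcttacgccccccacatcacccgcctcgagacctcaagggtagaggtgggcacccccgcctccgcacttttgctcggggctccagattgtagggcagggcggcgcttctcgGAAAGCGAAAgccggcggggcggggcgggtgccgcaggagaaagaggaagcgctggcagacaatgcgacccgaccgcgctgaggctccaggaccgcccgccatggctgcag

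IRAK2 (chr3:10164669-10164968, plus strand): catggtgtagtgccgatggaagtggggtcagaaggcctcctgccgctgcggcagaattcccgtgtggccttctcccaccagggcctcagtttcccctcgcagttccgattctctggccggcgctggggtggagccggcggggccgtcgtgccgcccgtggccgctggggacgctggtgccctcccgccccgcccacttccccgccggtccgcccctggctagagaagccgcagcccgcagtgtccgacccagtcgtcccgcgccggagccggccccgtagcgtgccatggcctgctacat

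The TLR3 and MYD88 matches thus belong to genes with log2 differences of -0.51 and -0.17, neither of which passed.

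Other genes of the same pathways, from a list of accessory proteins, ubiquitin ligases, regulators and inflammasome and cell death genes that the symbol rule does not take, were set beside them. Of 79 listed names, among them an older name of STING1, 59 were measured. Of these 4 passed, 2 higher and 2 lower, or 6.78%, against 8.41% of all genes tested. The list's median log2 difference was 0.02, against 0.037 over all genes tested, with 31 differences above 0 and 28 below. At an unadjusted p under 0.05 there were 18, or 30.5%, where 25% of all genes tested reached it. Of these 10 were higher, or 16.9% against 16.2% of all genes tested, and 8 lower, or 13.6% against 8.79%.

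The 2 genes that fell were TRIM25, which encodes a ubiquitin ligase acting on RIG-I, and MLKL, the executioner of necroptosis. TRIM25 averaged 9.34 ± 0.0875 with the EGOT gapmer and 9.88 ± 0.147 with the control gapmer (SD, n = 3 each), a log2 difference of -0.54 (limma adjusted p = 0.0239). MLKL averaged 4.75 ± 0.0728 with the EGOT gapmer and 5.15 ± 0.139 with the control gapmer (SD, n = 3 each), a log2 difference of -0.39 (limma adjusted p = 0.0454). RIPK3, the kinase that activates MLKL, differed by 0.07 on the log2 scale (limma adjusted p = 0.790). Both were dim, MLKL above the array median on 1 of 6 arrays and RIPK3 on 0. With a variance trend MLKL did not pass (limma adjusted p = 0.0607).

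The 2 genes that rose were TXNIP, which encodes a thioredoxin-binding protein described as an NLRP3 partner, and TRAFD1, which encodes a TRAF-type zinc finger protein described as a feedback inhibitor of innate signalling. TXNIP averaged 7.77 ± 0.119 with the EGOT gapmer and 7.06 ± 0.220 with the control gapmer (SD, n = 3 each), a log2 difference of 0.71 (limma adjusted p = 0.0235). With the mean of its probe sets the difference was 0.56 (adjusted p = 0.0431). TRAFD1 averaged 8.17 ± 0.0116 with the EGOT gapmer and 7.80 ± 0.113 with the control gapmer (SD, n = 3 each), a log2 difference of 0.37 (limma adjusted p = 0.0374). TRIM25 and TXNIP passed in 7 of 14 alternatives each, TRAFD1 in 5 of 14 and MLKL in 5 of 13, and none of the 4 passed with an array left out, where adjusted p-values ran from 0.0512 for TRIM25 without EGOT gapmer replicate 2 to 0.122 for MLKL without control gapmer replicate 1.

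Within the list, parts of the TLR and NOD routes adjoining the members did not pass. TRIM56, which encodes a ubiquitin ligase acting on STING, differed by -0.39 on the log2 scale (limma adjusted p = 0.0574), and ERBIN, a NOD2-binding protein gene, by -0.29 (adjusted p = 0.0674). PELI1, which encodes a ligase of IRAK1, had a log2 difference of 0.33 (adjusted p = 0.0736), and CNPY3, a chaperone gene for Toll-like receptors, of 0.23 (adjusted p = 0.0771). CYLD, a deubiquitinase gene of the TRAF pathway, had a log2 difference of -0.21 (adjusted p = 0.0878). TBKBP1 and TANK, scaffold genes of TBK1, had log2 differences of 0.32 (adjusted p = 0.143) and 0.17 (adjusted p = 0.161). TIRAP, the bridging adaptor of MYD88, had a log2 difference of -0.02 and TOLLIP, an inhibitor of IRAK signalling, of 0.00059. These genes beyond the 4 that passed were picked after their values were seen.

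**Figure D4:**
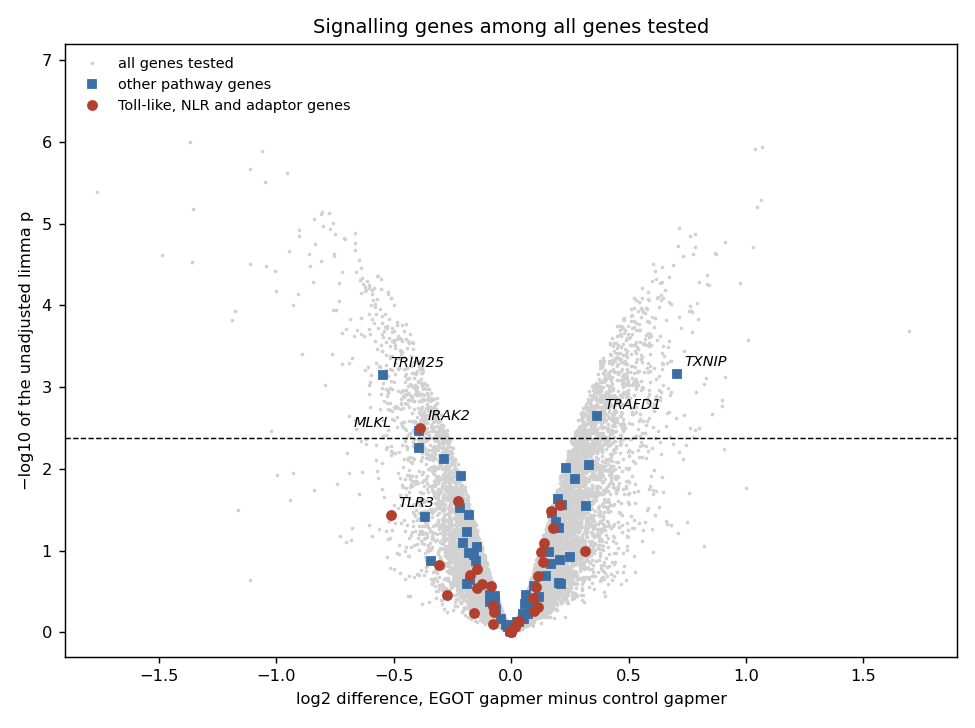
Log2 difference (EGOT gapmer minus control gapmer, x axis) against −log10 of the unadjusted limma p (y axis) for 14812 genes in grey, the 59 other pathway genes as blue squares and the 32 Toll-like, NLR and adaptor genes as red circles. The dashed line marks the largest p that passed after adjustment. IRAK2 is the red circle above the line, and TRIM25, MLKL, TXNIP and TRAFD1 are the blue squares above it.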

How the data were processed

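Total RNA of 6 HuH7 samples was measured on an Affymetrix whole-transcript array. The authors deposited log2 expression values made with RMA, per the submitters' processing notes, which corrects background, normalizes quantiles and summarises probe sets; the version, software, probe set filter and build: not given in the sources used here. Values ran from 1.05 to 14.1. Of 44629 probe sets, 15835 had 1 symbol in GEO's platform annotation, 0 had several, and the rest were not named here. All 15835 matched the RefSeq table of GRCh38.p14, and 0 symbols changed.

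EGOT gapmer minus control gapmer was fitted with limma 3.58.1 in R 4.3.3 (lmFit, eBayes, two-sided, 7.19 degrees of freedom, Benjamini-Hochberg over 14812 genes, threshold 0.05), after a test on simulated data. In the simulated data, the fit recovered 37 of 100 changes of 0.5 on the log2 scale and 82 of 100 changes of 1. Of its 124 calls there, 5 were false. Changes of 0.5 were thus missed more often than found in the simulation. It changed 100 genes at each size, whereas in the data 8.41% of the 14812 genes passed. The adjusted threshold depends on how many genes change, so this recovery may not hold for the data. The 3 arrays per group limit the precision. Alternatives changed the scaling, probe sets, filter on dim genes, variance model, gene span trend, replicate block and arrays used. Values on every array are given for members that passed, for those among the 12 largest differences whose groups did not overlap, and for 11 measured preset genes. TLR2 and TLR8 were added after their values were seen. The members and lists were chosen with earlier results of these data known.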

Additional observations from a re-analysis of the deposited data

How the results depend on the processing

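All counts are from limma with adjusted p under 0.05. Of the 32 members 1 passed as deposited. The count was 1 after a further quantile normalization, cyclic loess or the mean of probe sets, 4 of 11 with genes above the median level only, 2 with a variance trend, and 0 with array medians subtracted or the gene span trend removed (3 at an unadjusted p under 0.05 in each). With 1 array left out it was 0 to 0, with 2 to 4 members at an unadjusted p under 0.05. Of 59 other pathway genes 4 passed as deposited, 7 after quantile normalization, 7 after cyclic loess, 15 of 43 with genes above the median level only, 9 with a variance trend and 0 to 0 with 1 array left out (12 to 17 at an unadjusted p under 0.05). Over all genes the count was 1245 of 14812 as deposited, 2547 of 7406 with genes above the median level only (34.4%, against 8.41% as deposited), 2513 with a variance trend, 566 with the gene span trend removed and 9 to 579 with 1 array left out. Of the calls over all genes 61.8% were higher as deposited, 50.2% after quantile normalization, 48.8% after cyclic loess and 48.2% with the gene span trend removed. The members' median log2 difference ran from -0.074 with the gene span trend removed to 0.031 without control gapmer replicate 3. EGOT was too dim for the fit of genes above the median level and has no value there.

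With the replicate number as a block, 0 members, 0 pathway genes and 0 of all genes passed by limma, while 2, 14 and 3438 reached an unadjusted p under 0.05, and EGOT was at -1.76 (adjusted p = 0.0543). The deviations of same-numbered arrays correlated at -0.0307, -0.0540 and 0.0394. No EGOT gapmer array correlated best with the control array of its own number, though for replicate 3 the best was 0.0430. With deviations centred within groups of 3, such correlations cannot show whether same-numbered samples shared a culture or batch. The labels give a shared number only.

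Some members that passed in no alternative changed sign. NLRX1, NOD1 and MAVS were at -0.0067, -0.0079 and -0.0080 after quantile normalization, -0.0085, -0.0099 and -0.021 after cyclic loess, and -0.064, -0.032 and -0.037 with the gene span trend removed. NOD1 was at -0.0079 with array medians subtracted and TLR4 at -0.062 with the gene span trend removed. With 1 array left out, log2 differences ran from -0.45 to 0.00066 for IRAK3, -0.018 to 0.10 for MAVS, -0.0075 to 0.061 for NLRX1, -0.043 to 0.055 for NOD1, -0.039 to 0.22 for NOD2 and -0.040 to 0.068 for STING1. They ran from -0.051 to 0.065 for TLR1, -0.44 to 0.15 for TLR2, -0.024 to 0.085 for TLR4, -0.35 to 0.12 for TLR8-AS1 and -0.14 to 0.044 for TLR9. Of all values of single genes under the alternatives, 417 kept direction and side of the threshold, 44 no longer passed, 4 newly passed and 31 changed sign. The cause of these changes was not tested, beyond the fewer genes or arrays that some fits hold.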

Other observations

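Over the 32 members, EGOT gapmer replicate 2 gave the highest value of its group in 16 genes and replicate 3 the lowest in 15. In the control gapmer arrays, replicate 1 gave the lowest value in 14 and replicate 2 the highest in 13. The median level of the members was 5.50, 5.47 and 5.33 in EGOT gapmer replicates 1 to 3 and 5.45, 5.30 and 5.58 in control gapmer replicates 1 to 3, so the groups overlapped. Of the 10 Toll-like receptor genes, 7 had their lowest EGOT gapmer value in replicate 3, namely TLR2, TLR3, TLR4, TLR5, TLR6, TLR8 and TLR9, and 3 in replicate 1. Whole-array medians of the EGOT gapmer group were highest in replicate 2 (5.23), then replicate 1 (5.118) and replicate 3 (5.075). Those of control gapmer replicates 1 to 3 were 5.15, 5.125 and 5.123, so replicate 1 was highest there. Whether the members or receptors differ in this from all genes was not tested.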
